A study of Cavia porcellus with 11 samples.

Results

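The bone marrow and blood lineage genes are a panel of 31 genes that mark red cell precursors, neutrophils, B cells, T cells and platelets. They were taken by gene symbol from a table of guinea pig cochlear RNA-seq counts. Of the 31 symbols, 24 were rows of the table, which holds 21481 genes in all. The 7 symbols with no row were Elane, Prtn3, S100a8, Vpreb1, Cd3e, Cd3d and Pf4. The rule takes symbols, not values, though the symbols were listed with earlier results of these data known.

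The 11 libraries were made from cochlear RNA of Cavia porcellus. There were 3 libraries from animals given cisplatin plus STB, 4 from animals given cisplatin alone, and 4 control libraries from untreated animals. Cisplatin is a platinum drug that damages the inner ear. STB is not spelled out in the labels, and the study's title names Schisantherin B, a plant lignan. All groups share the species and tissue, and the design text calls the untreated animals wildtype. Strain, age, sex, dose, time, the number of animals behind a library and the handling of the bony capsule are not given in the sources used here. The p-values below therefore measure the spread between libraries, which may be partly technical.

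Blood cells are made in the marrow that fills cavities of many bones, and the cochlea lies inside the dense bone of the otic capsule. Red cell precursors switch on heme synthesis, hemoglobin and a special membrane skeleton under the transcription factors Gata1 and Klf1. Neutrophil precursors fill granules in a fixed order, with myeloperoxidase and elastase early, lactoferrin and cathelicidin later, and gelatinase last. Mature neutrophils, red cells and platelets also circulate, so part of this programme can reach any tissue with its blood. In bulk RNA, fewer cells of a type and less RNA per cell cannot be told apart.

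The summed counts per library lay between 14338894 and 18508296. At these depths 3 counts correspond to 0.159 to 0.207 CPM, the count scaled to a common library size, and such a floor covers counting error only. Cochlin (Coch), the main matrix protein of the cochlea, took 2.79% to 4.97% of all counts in every library. The highest CPM of a member fell most often in 2 libraries. Cisplatin plus STB replicate 2 held it for 6 of the 23 members with any count, or 26.1%, against 10.4% of the 18394 genes of the table with a count, and control replicate 3 for 5, or 21.7%, against 5.87% of genes. In summed CPM of the 23 members other than Itga2b, cisplatin plus STB replicate 2 and cisplatin replicate 2 were equal and highest, at 23.4 each, and the other 9 libraries lay between 12.4 and 18.9. For some of the values named below that rest on 1 library, the value without it is given.

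The 24 genes were scarce in these libraries. Together they received 9469 counts over all libraries, or 0.00526% of the total, and Itga2b alone made up 68.8% of that sum. By the authors' FPKM, which divides a gene's count by its length and by the library's total, the members had a median of 0.0641 against 3.09 over all genes of the table. Each library held a count for 13 to 19 of the 24 genes. Only 9 of the 24 were counted in every library, beside 72.1% of all genes of the table. Fewer than 50 counts in all 11 libraries together were found for 16.

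**Figure D1:**
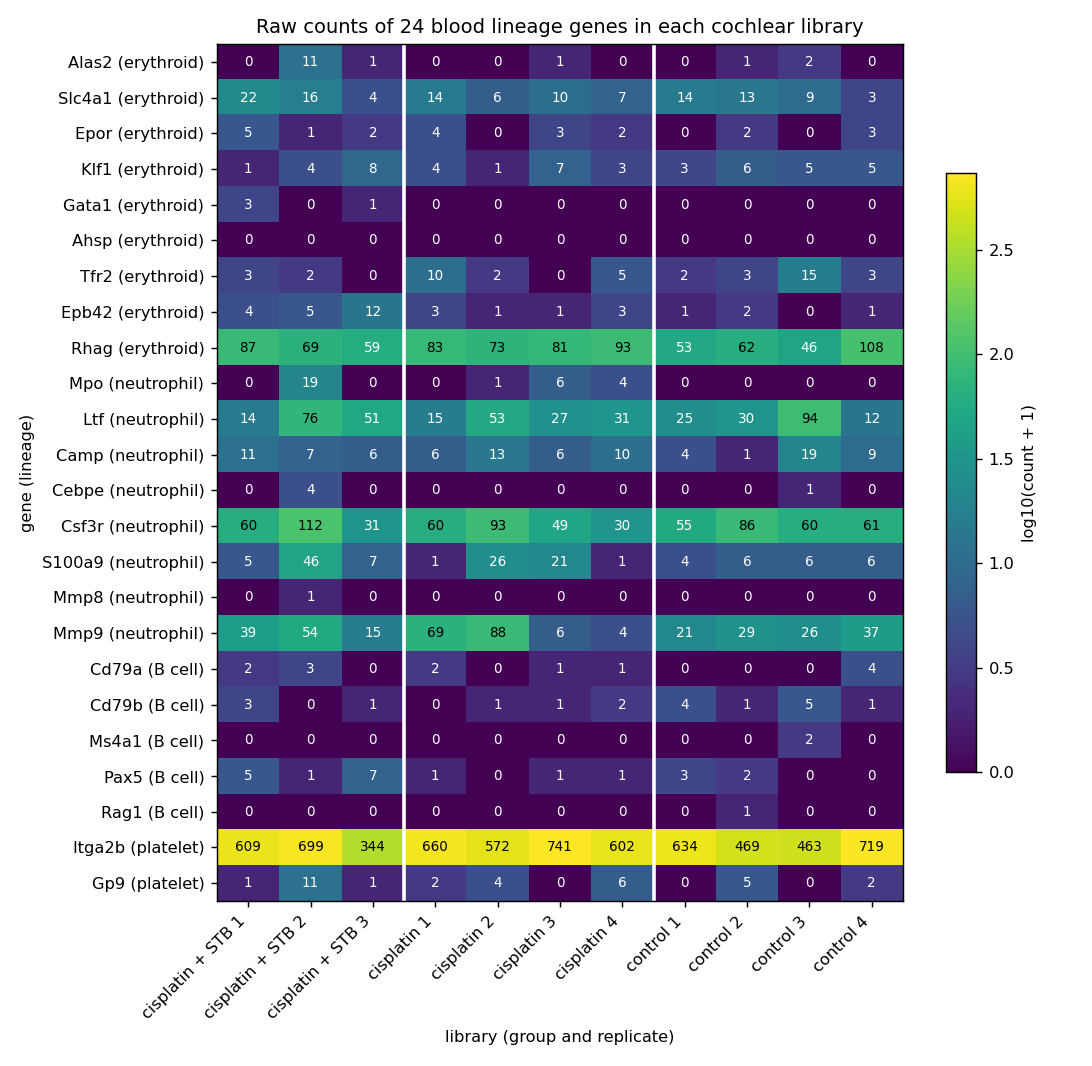
Raw counts of the 24 genes (rows, with lineage) in each of the 11 libraries (columns, by group and replicate), with colour for log10(count + 1) and the count printed in each cell. Itga2b held 344 to 741 counts in every library, Ahsp held none, and most other rows stayed in single or low double digits.

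Several members that mark blood cell precursors or lymphocytes were at or near 0, and these do not bear out the label of bone marrow. They were picked after their values were seen. Ahsp, which holds free alpha globin in red cell precursors, was at 0 in all 11 libraries. Over the table, 14.4% of genes were at 0 in every library. The heme enzyme Alas2 had 16 counts in total, the transcription factor Gata1 4, the granule enzyme Mpo 30, the granulocyte factor Cebpe 5 and the neutrophil collagenase Mmp8 1. The B cell genes Ms4a1 (CD20) and Rag1, the recombinase of developing lymphocytes, had totals of 2 and 1 counts. Of the 24 members, 9 were counted in every library, beside 72.1% of all genes. Among these 9 were Rhag with 814 counts, Ltf with 428, Slc4a1 with 118 and Klf1 with 47. The alpha and beta globin rows described further below, which are not members, had 1559 and 1246 counts. From a wider list of 36 red cell genes, 30 were in the table, and the blood group gene Kel was at 0 in every library. As a whole that list was not scarce, with a median of 4.96 FPKM over the 30 against 3.09 over all genes. It includes heme enzymes, Tfrc and membrane skeleton genes that other cells also use. The set is therefore called here by its symbols and lineages, and no marrow content is read from it.

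The members differed by lineage in level per length. The 9 erythroid members had a median FPKM of 0.0627, the 8 neutrophil members 0.699 and the 5 B cell members 0.0136. The 2 platelet members averaged 5.34 FPKM for Itga2b and 0.06 for Gp9. For scale, the median was 3.00 FPKM in a list of 14 macrophage genes, 12.5 in 10 endothelial genes and 16.7 in 12 cochlear genes. A list of 11 osteoblast and osteocyte genes had a median of 1.62 FPKM and a list of 9 osteoclast genes 0.855. These medians were above those of the erythroid, neutrophil and B cell members, as was the 4.96 FPKM of the wider erythroid list.

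**Figure D2:**
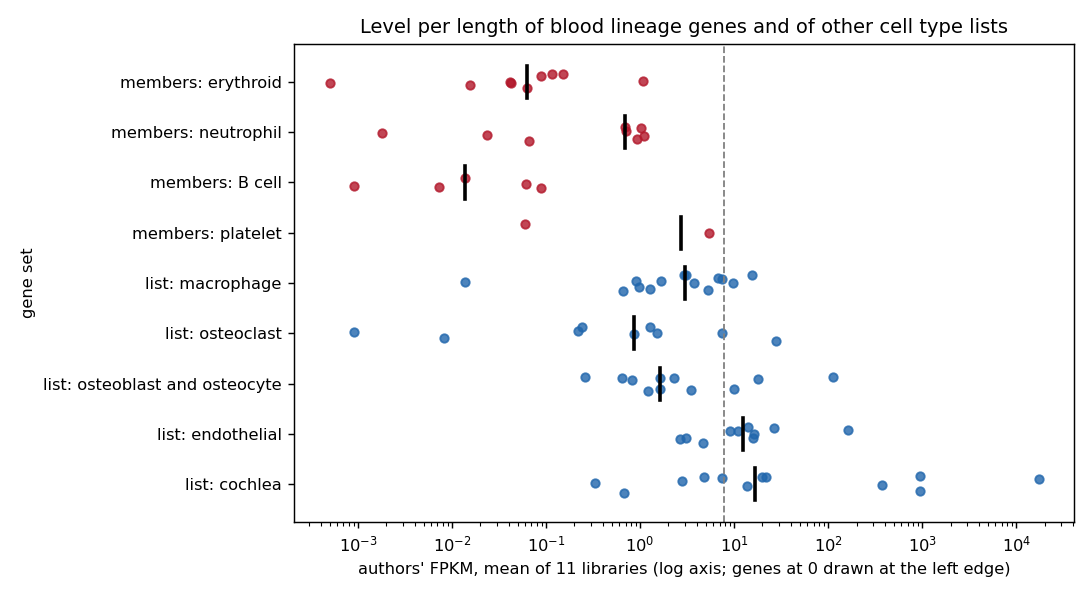
Mean FPKM over the 11 libraries (log axis) for each gene of the 4 member lineages with rows in the table (red) and of 5 other cell type lists (blue), with black bars at the medians and a dashed line at the median of all tested genes, 7.73 FPKM. Every member lay to the left of the dashed line, and Itga2b at 5.34 FPKM came nearest to it. Itga2b was above the median of all genes of the table, 3.09 FPKM, which is not drawn.

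A count filter that asks for enough reads in at least as many libraries as the smallest group left 15384 of the 21481 genes for testing, or 71.6%. It left 8 of the 24 members, or 33.3%. These were Slc4a1 and Rhag of the red cell genes, Ltf, Camp, Csf3r, S100a9 and Mmp9 of the neutrophil genes, and Itga2b of the platelet genes. No B cell member passed. The other 16 are described by their counts.

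Among the erythroid genes, Rhag was the most counted. It encodes the Rh-associated glycoprotein, a membrane channel of red cells, and its row gives bases 46298842 to 46319017, plus strand, of a scaffold in a genome build that the sources used here do not name. Rhag had 5.62, 3.65 and 3.55 CPM in the cisplatin plus STB libraries. It had 5.18, 4.72, 4.81 and 5.67 CPM with cisplatin, and 3.65, 3.87, 2.99 and 5.90 CPM in controls. The 4 cisplatin libraries sat close together, within the range of the controls, whose replicate 4 was the highest of all. The group means were 4.27 ± 1.17 CPM with cisplatin plus STB (SD, n = 3), 5.10 ± 0.433 with cisplatin (SD, n = 4) and 4.10 ± 1.26 in controls (SD, n = 4). Cisplatin plus STB against cisplatin gave a fitted log2 fold change of -0.26 (SE 0.28, adjusted p = 0.841 in edgeR's quasi-likelihood test). Cisplatin against control gave 0.31 (SE 0.26, adjusted p = 0.705), and cisplatin plus STB against control gave 0.05 (SE 0.28, adjusted p = 1).

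Slc4a1, the band 3 anion exchanger of the red cell membrane, was counted in every library at a few reads. It had 1.42, 0.845 and 0.241 CPM with cisplatin plus STB, 0.874, 0.388, 0.594 and 0.427 CPM with cisplatin, and 0.964, 0.812, 0.585 and 0.164 CPM in controls. The lowest and the highest control differed more than the group means did. Its means were 0.836 ± 0.590, 0.571 ± 0.221 and 0.631 ± 0.348 CPM in cisplatin plus STB, cisplatin and control libraries (SD, n = 3, 4 and 4). The log2 fold change was 0.54 (SE 0.65) for cisplatin plus STB against cisplatin. It was -0.06 without cisplatin plus STB replicate 1 and 0.97 without replicate 3. Its size thus moved with single libraries, and its sign changed only without replicate 1, to a value near 0.

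The other 7 erythroid genes were near the floor. Klf1, a master regulator of red cell genes, was the only untested member with a count in every library, at 1, 4 and 8 counts with cisplatin plus STB, 4, 1, 7 and 3 with cisplatin and 3, 6, 5 and 5 in controls. Alas2, the first enzyme of heme synthesis in red cell precursors, had 0, 11 and 1 counts with cisplatin plus STB, 0, 0, 1 and 0 with cisplatin and 0, 1, 2 and 0 in controls. Of its summed CPM, 65.1% came from cisplatin plus STB replicate 2. Gata1 had 3, 0 and 1 counts with cisplatin plus STB and none in the 8 other libraries, a level under or at the floor. Epor, the erythropoietin receptor, had 22 counts in total and Tfr2, an iron-sensing transferrin receptor, had 45, of which 15 came from control replicate 3.

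Epb42, the red cell membrane skeleton protein 4.2, had 4, 5 and 12 counts in the cisplatin plus STB libraries. It had 3, 1, 1 and 3 counts with cisplatin and 1, 2, 0 and 1 in controls. It was the only one of the 23 members with a count whose CPM did not overlap between groups, in cisplatin plus STB against cisplatin and against control. Over all 18394 genes with a count, 6.9% and 2.5% did not overlap in those comparisons, so 1 member is near the background. In a fit with no count filter the log2 fold change of Epb42 against control was 2.59 (SE 0.85), with an unadjusted p of 0.00895 and an adjusted p of 1 by edgeR.

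Among the neutrophil genes, Csf3r, the receptor for granulocyte colony-stimulating factor, was the most counted. It had 3.88, 5.92 and 1.87 CPM with cisplatin plus STB. With cisplatin it had 3.75, 6.01, 2.91 and 1.83 CPM, and in controls 3.79, 5.37, 3.90 and 3.33 CPM. Each group held a library above 5 CPM, and the controls fell inside the range of both other groups. The means were 3.89 ± 2.03, 3.62 ± 1.78 and 4.10 ± 0.883 CPM in cisplatin plus STB, cisplatin and control libraries (SD, n = 3, 4 and 4). Csf3r shares 3291 bases with Mrps15, a gene on the same strand with 6754 counts, and the sources used here do not say how reads in the shared part were assigned. Its level is therefore uncertain.

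Ltf encodes lactoferrin, the iron-binding protein of neutrophil secondary granules, which gland epithelium also makes. It had 0.905, 4.02 and 3.07 CPM with cisplatin plus STB, 0.936, 3.43, 1.60 and 1.89 CPM with cisplatin, and 1.72, 1.87, 6.11 and 0.656 CPM in controls. The controls alone spanned the range of both treated groups, and their replicate 3 was the highest of all libraries. The log2 fold change of cisplatin against control was -0.40 (SE 0.65), and it was 0.47 without control replicate 3. Camp, the cathelicidin of the same granules, also peaked in control replicate 3, at 1.24 CPM, and ranged down to 0.0625 CPM in control replicate 2. Its means were 0.481 ± 0.199, 0.545 ± 0.228 and 0.516 ± 0.510 CPM in cisplatin plus STB, cisplatin and control libraries (SD, n = 3, 4 and 4).

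S100a9, which pairs with S100a8 in the neutrophil protein calprotectin, varied widely within the treated groups. It had 0.323, 2.43 and 0.422 CPM with cisplatin plus STB. With cisplatin it had 0.0624, 1.68, 1.25 and 0.061 CPM, while the controls lay between 0.275 and 0.390 CPM, at 0.275, 0.375, 0.390 and 0.328. The treated libraries thus fell on both sides of the controls, but on few reads. The controls held 4, 6, 6 and 6 counts, and cisplatin replicates 1 and 4 held 1 count each, under the floor of 3 counts. The means were 1.06 ± 1.19, 0.763 ± 0.83 and 0.342 ± 0.0517 CPM in cisplatin plus STB, cisplatin and control libraries (SD, n = 3, 4 and 4). The log2 fold change of cisplatin plus STB against control was 1.63 (SE 0.99, 95% interval -0.53 to 3.78), with an unadjusted p of 0.127 and an adjusted p of 1 by edgeR. Without cisplatin plus STB replicate 2 it was 0.12, and the change against cisplatin was -1.01 in place of 0.49.

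Mmp9, the gelatinase of neutrophil tertiary granules, is also a strong osteoclast gene. It had 2.52, 2.85 and 0.903 CPM with cisplatin plus STB, 4.31, 5.69, 0.356 and 0.244 CPM with cisplatin, and 1.45, 1.81, 1.69 and 2.02 CPM in controls. The cisplatin libraries split into a high and a low pair, with all controls between them. The means were 2.09 ± 1.04, 2.65 ± 2.77 and 1.74 ± 0.241 CPM in cisplatin plus STB, cisplatin and control libraries (SD, n = 3, 4 and 4). The log2 fold change of cisplatin against control was 0.60 (SE 0.79), with an adjusted p of 0.805 by edgeR.

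Mpo, the peroxidase of primary granules, had 0, 19 and 0 counts with cisplatin plus STB and 0, 1, 6 and 4 with cisplatin. It was at 0 in all 4 controls. Of its summed CPM, 60.2% came from cisplatin plus STB replicate 2, the library that also held 4 of the 5 counts of Cebpe and the single count of Mmp8. In the fit with no count filter, Mpo had an unadjusted p of 0.0274 for cisplatin plus STB against control and 0.0664 for cisplatin against control, with adjusted p of 1 and 0.593 by edgeR. A fold change is not given for it, because the controls were at 0 and most treated libraries at or under the floor of 3 counts.

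The B cell genes were at the limit of detection in all groups. Pax5, the factor that fixes B cell identity, had 5, 1 and 7 counts with cisplatin plus STB, 1, 0, 1 and 1 with cisplatin and 3, 2, 0 and 0 in controls. Cd79a and Cd79b, the signalling chains of the B cell receptor, had 13 and 19 counts in total and never more than 5 in a library. None of the 5 was called in the fit with no count filter. The lowest unadjusted p among them in the 3 comparisons was 0.0587 by edgeR, for Pax5 in cisplatin plus STB against cisplatin. Without cisplatin plus STB replicate 2 the unadjusted p of Pax5 there was 0.0267 by edgeR, and the adjusted p 0.785.

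Itga2b, the alpha IIb chain of the platelet fibrinogen receptor, was the one member at a middling level, with a mean CPM above that of 57.4% of the tested genes. Its row gives bases 95435711 to 95450089, minus strand, and Slc4a1 is listed nearby on the same scaffold and strand at 95378931 to 95390515. It had 39.3, 36.9 and 20.7 CPM with cisplatin plus STB, 41.2, 37.0, 44.0 and 36.7 CPM with cisplatin, and 43.6, 29.3, 30.1 and 39.3 CPM in controls. Cisplatin plus STB replicate 3 was the lowest library, and the other 10 lay between 29.3 and 44.0 CPM. The means were 32.3 ± 10.1, 39.7 ± 3.51 and 35.6 ± 7.03 CPM in cisplatin plus STB, cisplatin and control libraries (SD, n = 3, 4 and 4). The log2 fold change was -0.30 (SE 0.21) for cisplatin plus STB against cisplatin and -0.06 without cisplatin plus STB replicate 3. It was 0.16 (SE 0.20) for cisplatin against control.

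Most other platelet genes were lower than Itga2b per length. Gp9, a chain of the receptor for von Willebrand factor, had 32 counts in total, 11 of them in cisplatin plus STB replicate 2. From a wider list of 20 platelet and megakaryocyte genes, 18 were in the table and 14 were tested. Their median was 0.495 FPKM, and Itgb3, the beta 3 chain that pairs with alpha IIb in platelets and with another alpha chain in osteoclasts and vessels, averaged 7.34 FPKM. Gp5, Tubb1 and Clec1b, which are platelet markers, had 1, 6 and 3 counts in total.

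**Figure D3:**
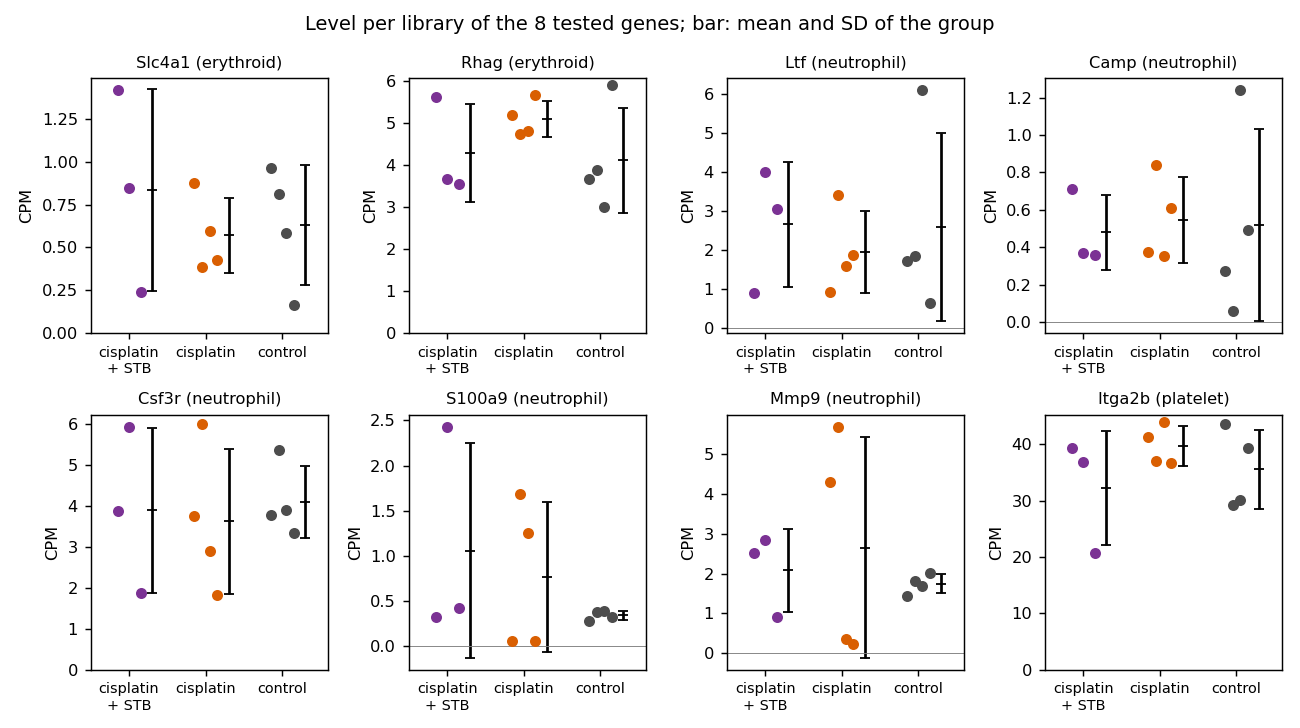
CPM of the 8 tested genes in each library (points), by group, with the mean and SD of each group as a bar beside the points; each panel has its own linear axis. The groups overlap in every panel, and single libraries stand far from their group in several, such as cisplatin plus STB replicate 2 for S100a9 and control replicate 3 for Ltf and Camp.

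No member passed an adjusted p of 0.05 in any comparison. For cisplatin plus STB against cisplatin, 0 of 8 members were called, as were 0.0195% of the 15384 genes tested. At an unadjusted p under 0.05 it was 0 of 8 members, beside 9.03% of all genes, and the groups overlapped for all 8, beside 7.54% of genes whose groups did not. The adjusted p of the 8 ran between 0.731 for Itga2b and 0.962 for Csf3r. Their median log2 fold change was -0.04, beside 0 over all genes tested.

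For cisplatin against control, 0 of 8 members were called, and the same test called 0% of all genes. At an unadjusted p under 0.05 it was again 0 of 8 members, beside 9.71% of genes, and no member's groups were apart, beside 6.06% of genes. The lowest adjusted p was 0.705, for Rhag and S100a9. The median log2 fold change of the 8 was 0.12, beside -0.01 over all genes.

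For cisplatin plus STB against control, 0 of 8 members were called, and 0% of all genes. It was 0 of 8 at an unadjusted p under 0.05, beside 1.07% of genes, and 0 of 8 with groups apart, beside 2.41%. In the test of any difference among the 3 groups, 0 of 8 members were called, beside 0.0065% of genes, with 0 of 8 and 7.25% at an unadjusted p under 0.05. DESeq2 gave 0 of 8 members with an unadjusted p under 0.05 in every comparison. Its adjusted p, which DESeq2 leaves out for some low genes, called 0 of 5 members for cisplatin plus STB against cisplatin, beside 0.699% of genes. It called 0 of 8 for cisplatin against control, beside 0.215%, 0 of 8 for cisplatin plus STB against control, beside 0%, and 0 of 7 for any difference, beside 0.725%.

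With no count filter, all 23 members with a count could be fitted in edgeR and 0 were called at an adjusted p of 0.05. The same rule called 0.0163% of the 18394 genes for cisplatin plus STB against cisplatin, 0.00544% for cisplatin against control, 0% for cisplatin plus STB against control and 0.0109% for any difference. At an unadjusted p under 0.05, cisplatin plus STB against cisplatin had 1 of 23 members, Alas2 with an adjusted p of 0.604 by edgeR, beside 8.08% of genes. Cisplatin against control had 0 of 23, beside 8.44%, and no member whose groups were apart, beside 5.39%. Cisplatin plus STB against control had 2 of 23, Epb42 and Mpo, beside 1.28%, and any difference had 1 of 23, Epb42, beside 6.41%. Alas2, Epb42 and Mpo all had under 50 counts in total, and Alas2 and Mpo were highest in cisplatin plus STB replicate 2. Without that library the adjusted p of Alas2 in cisplatin plus STB against cisplatin was 0.978 by edgeR, and Mpo was at 0 in all cisplatin plus STB and control libraries. Mpo in cisplatin against control then had an unadjusted p of 0.0249 and an adjusted p of 0.55 by edgeR. Epb42 in cisplatin plus STB against control had a fitted change of 2.84 on the log2 scale (SE 0.93, adjusted p = 1).

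The intervals show what these libraries could resolve. For Itga2b the 95% interval of the log2 fold change was -0.76 to 0.17 in cisplatin plus STB against cisplatin and -0.27 to 0.59 in cisplatin against control. For Rhag it was -0.87 to 0.36 and -0.26 to 0.88. For S100a9 it was -1.56 to 2.54 and -0.94 to 3.21. A change of S100a9 by 1 log2 unit in either direction thus lies inside its first interval, while for Itga2b both limits lie within 1 log2 unit of 0.

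**Figure D4:**
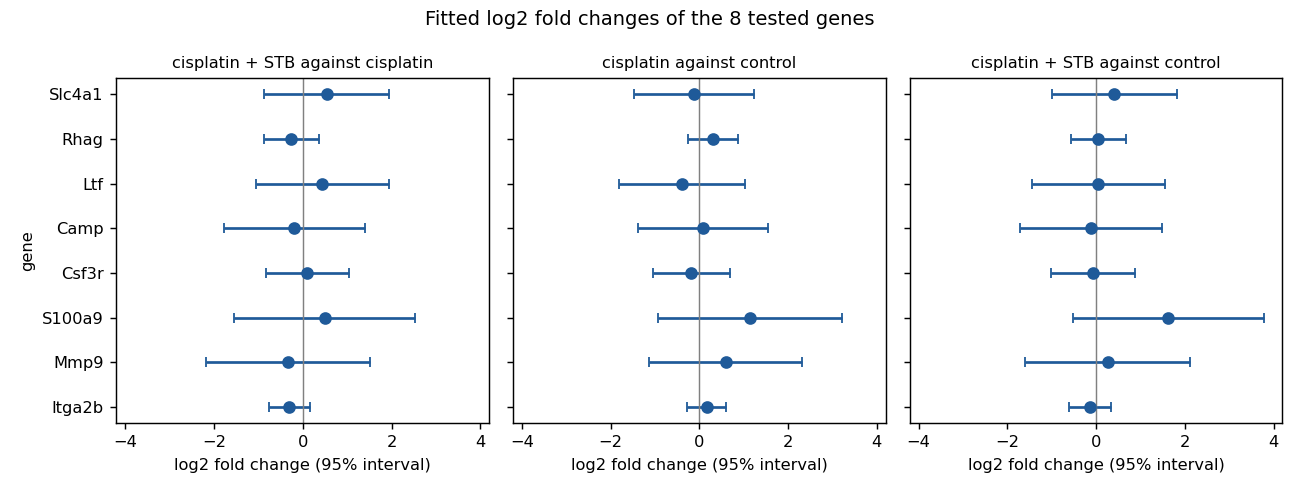
Fitted log2 fold change (points) and 95% interval (bars) of the 8 tested genes in the 3 comparisons, with 0 as a grey line. Every interval crosses 0, the intervals of Itga2b and Rhag are the narrowest and that of S100a9 is the widest.

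All 8 tested members varied between libraries of a group at or above the middle of all genes. The biological coefficient of variation, the square root of the dispersion that edgeR fits, had a median of 0.209 over the genes tested. It was 0.838 for S100a9, 0.753 for Mmp9 and 0.625 for Ltf, above 98.1%, 97.6% and 96.1% of genes. It was 0.286 for Rhag and 0.212 for Itga2b, above 70.7% and 51.2% of genes. The mean CPM of these genes differed as well, and 7 of the 8 were within the lowest 18% of tested genes by CPM, so level and spread move together here and were not separated.

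Whether members of different lineages were high in the same libraries was examined next, and no pair passed the permutation test over all 11 libraries. The most counted member of each of 3 lineages was compared over the 11 libraries on log2 CPM, giving 3 pairs. Rhag and Itga2b had Pearson's r of 0.52 (permutation p = 0.0924, adjusted 0.277) and Spearman's rho of 0.44 (permutation p = 0.184, adjusted 0.39). Without the 2 libraries farthest from the median of Rhag, r was 0.22, without control replicate 1 it was 0.66 (permutation p = 0.027, not adjusted), and with each library set relative to its group mean it was 0.45. Rhag and Csf3r had r of -0.21 (permutation p = 0.523, adjusted 0.523) and rho of -0.37 (permutation p = 0.26, adjusted 0.39), and r of -0.60 without the 2 farthest libraries. Csf3r and Itga2b had r of 0.28 (permutation p = 0.411, adjusted 0.523) and rho of -0.09 (permutation p = 0.796, adjusted 0.796), and r of -0.51 without the 2 farthest libraries. The sign of the last pair thus rested on those libraries.

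Some of the panel's missing symbols have rows under locus names, which the table describes in words. So do the alpha and beta globins, a neutrophil lipocalin and a platelet basic protein, none of which was a symbol of the panel. These rows were chosen after the descriptions had been read, and they are not members. The row described as hemoglobin subunit alpha (LOC100712878) had 43, 500 and 193 counts with cisplatin plus STB, 41, 44, 159 and 60 with cisplatin and 155, 87, 102 and 175 in controls. The row described as hemoglobin subunit beta (LOC100720944) had 15, 571 and 161 counts with cisplatin plus STB, 3, 9, 103 and 42 with cisplatin and 60, 88, 71 and 123 in controls. Both were highest in cisplatin plus STB replicate 2 and lowest in cisplatin replicate 1.

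The globin levels did not pass the test. Summed over both genes, the cisplatin plus STB libraries had 3.75, 56.6 and 21.3 CPM, the cisplatin libraries 2.75, 3.43, 15.6 and 6.22 CPM and the controls 14.8, 10.9, 11.2 and 16.3 CPM. Cisplatin replicates 1, 2 and 4 were below every control, and cisplatin plus STB held both a low and the highest library. For cisplatin plus STB against cisplatin the log2 fold change was 1.56 (SE 0.64) for the alpha gene and 2.52 (SE 1.08) for the beta gene, with adjusted p of 0.518 and 0.533 by edgeR. Without cisplatin plus STB replicate 2 the changes were 0.64 and 1.17. For cisplatin against control they were -0.80 (SE 0.60) and -1.14 (SE 1.01), with adjusted p of 0.672 and 0.719.

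**Figure D5:**
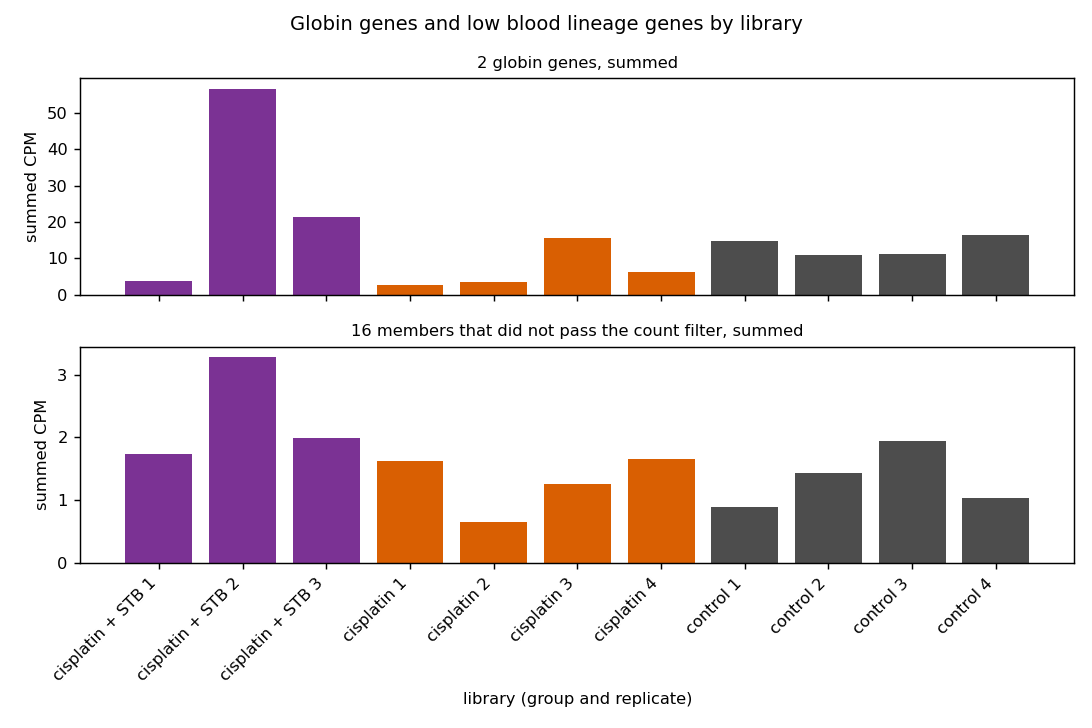
Summed CPM by library of the 2 globin genes (upper panel) and of the 16 members that did not pass the count filter (lower panel), with libraries coloured by group. Cisplatin plus STB replicate 2 was highest in both panels, at 56.6 and 3.28 CPM.

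The low members were also high in that library. The 16 untested members summed to 1.74, 3.28 and 1.99 CPM with cisplatin plus STB, 1.62, 0.647, 1.25 and 1.65 CPM with cisplatin and 0.895, 1.44, 1.95 and 1.04 CPM in controls. Of the 15 with a single highest library, 5 peaked in cisplatin plus STB replicate 2, or 33.3%, against 12.4% of the 3010 untested genes with one highest library. Another 3 peaked in cisplatin plus STB replicate 3 and 3 in control replicate 3, or 20% each, against 7.28% and 8.97% of those genes. Of the 8 tested members, 1 peaked in cisplatin plus STB replicate 2, or 12.5%, against 9.99% of all tested genes. In control replicate 3 and in cisplatin replicate 2 it was 2 each, or 25%, against 5.27% and 18.8%. The part of residual blood in these values was not tested.

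Of the other rows, 1 passed the count filter. The row described as neutrophil gelatinase-associated lipocalin (LOC100724477) had 25, 99 and 47 counts with cisplatin plus STB, 46, 86, 41 and 28 with cisplatin and 34, 51, 48 and 63 in controls. Its mean of 2.47 FPKM was above that of every neutrophil member, and its log2 fold change was within 0.10 of 0 in all 3 comparisons. The remaining rows were scarce. The row described as S100-A8 (LOC100735514), the partner of S100a9, had 0, 15 and 2 counts with cisplatin plus STB, 0, 8, 16 and 6 with cisplatin and 3, 1, 3 and 0 in controls. Its 3 highest libraries were also the 3 highest for S100a9. The row described as neutrophil elastase (LOC100724414) had 53 counts in total and that described as CD3 epsilon (LOC100727781), a chain of the T cell receptor complex, had 38. The row described as CD3 delta (LOC100727506) had 2 counts and that of the pre-B surrogate light chain (LOC100735142) 1. The row described as platelet basic protein-like (LOC100732171) had 20 counts in total, 13 of them in cisplatin plus STB replicate 2. No row was matched to Prtn3 or Pf4.

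Wider lists of the 5 lineages gave no called gene in edgeR. DESeq2 called none of those to which it gave an adjusted p, which in cisplatin plus STB against cisplatin were 23 of 25 erythroid, 9 of 13 neutrophil, 11 of 17 B cell, 5 of 10 T and NK cell and 11 of 14 platelet genes. Of 25 tested erythroid genes, 0 were called in any comparison. At an unadjusted p under 0.05, 1 was higher and 2 were lower in cisplatin plus STB against cisplatin, 0 and 1 in cisplatin against control, and 1 and 1 in cisplatin plus STB against control. Their median log2 fold changes were 0.09, -0.04 and 0.02 in that order. Of all genes tested, 9.03%, 9.71% and 1.07% had an unadjusted p under 0.05 in the same order, in either direction. Bcl11a, a repressor of fetal globin that many tissues use, averaged 6.62 ± 1.68 CPM with cisplatin plus STB, 3.61 ± 0.925 with cisplatin and 6.79 ± 2.78 in controls (SD, n = 3, 4 and 4). Cited4, a coactivator gene, averaged 2.59 ± 0.0649, 5.50 ± 1.97 and 5.04 ± 0.942 CPM in the same groups, with adjusted p of 0.383 and 1 by edgeR for cisplatin plus STB against cisplatin and against control.

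The heme enzyme gene Urod and the transferrin receptor gene Tfrc, both used by all dividing cells, were far more counted than the members. Urod averaged 51.8 ± 2.94, 63.6 ± 4.32 and 58.9 ± 7.34 CPM, and Tfrc 90.6 ± 22.9, 125 ± 15.9 and 95.8 ± 28.0 CPM, in cisplatin plus STB, cisplatin and control libraries (SD, n = 3, 4 and 4). The fitted log2 fold change of Tfrc was -0.47 (SE 0.22) for cisplatin plus STB against cisplatin, with an adjusted p of 0.565. These levels stand beside Ahsp and Kel at 0.

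Of 13 tested neutrophil genes, 0 were called in any comparison. At an unadjusted p under 0.05, 0 were higher and 3 lower in cisplatin plus STB against cisplatin, 3 higher and 0 lower in cisplatin against control, and 0 in cisplatin plus STB against control. The shares over all genes tested were 9.03%, 9.71% and 1.07%, in either direction. The first 2 comparisons share the cisplatin libraries, so their opposite signs are not separate findings. The median log2 fold changes were -0.16, 0.18 and 0.14. The 3 genes were Adam8, Fpr1 and Il1r2.

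Il1r2, the decoy receptor for interleukin 1, averaged 34.0 ± 27.0 CPM with cisplatin plus STB, 88.6 ± 28.9 with cisplatin and 46.0 ± 6.03 in controls (SD, n = 3, 4 and 4). Every cisplatin library, at 65.7 CPM or more, was above every library of the other groups, whose highest value was 64.9. Over all genes tested, the groups were apart for 7.54% in cisplatin plus STB against cisplatin and 6.06% in cisplatin against control. The log2 fold change of Il1r2 was -1.38 (SE 0.44) in the first comparison and 0.94 (SE 0.40) in the second, with adjusted p of 0.42 and 0.508 by edgeR. Fpr1, a receptor for formylated bacterial peptides, averaged 0.280 ± 0.206, 1.27 ± 0.892 and 0.254 ± 0.179 CPM in the same groups. Adam8, a membrane protease, rested on cisplatin replicate 2, where it had 53.2 CPM against 1.56 to 3.84 in the other cisplatin libraries. Its log2 fold change of cisplatin against control was 3.51 (SE 1.05), and 1.08 without that library. Alox5ap, a protein of leukotriene synthesis, averaged 0.950 ± 0.518, 0.412 ± 0.336 and 0.827 ± 0.494 CPM in cisplatin plus STB, cisplatin and control libraries (SD, n = 3, 4 and 4).

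Of 17 tested B cell genes, 0 were called. Spib, a transcription factor of B cells, was lowest with cisplatin, at 11.7 ± 4.17 CPM with cisplatin plus STB, 7.24 ± 2.36 with cisplatin and 11.2 ± 1.30 in controls (SD, n = 3, 4 and 4). It was the only gene of the list with an unadjusted p under 0.05 in cisplatin plus STB against cisplatin and in cisplatin against control, with adjusted p of 0.518 and 0.51 by edgeR. Over all genes tested, 9.03% and 9.71% had an unadjusted p under 0.05 there. Bach2 averaged 7.80 ± 1.44, 10.6 ± 2.00 and 9.17 ± 1.67 CPM in the same groups, Cr2 0.758 ± 0.635, 1.11 ± 0.640 and 0.398 ± 0.434, and Cd72 1.95 ± 0.796, 1.17 ± 0.536 and 1.32 ± 0.380.

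Of 25 T and NK cell genes in the table, 10 were tested, 0 were called and none had an unadjusted p under 0.05 in any of the 3 comparisons. Their median was 0.0536 FPKM over the 25. Cd27 averaged 0.662 ± 0.376 CPM with cisplatin plus STB, 1.18 ± 0.869 with cisplatin and 0.515 ± 0.0504 in controls (SD, n = 3, 4 and 4). Nkg7, Icos and Cd28 all averaged under 1 CPM in every group. Cd4 and Cd8a, which mark the main T cell classes, had 26 and 13 counts in total.

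Of 14 tested platelet and megakaryocyte genes, 0 were called. Gp1bb, another chain of the von Willebrand factor receptor, averaged 2.38 ± 0.952 CPM with cisplatin plus STB, 1.92 ± 1.66 with cisplatin and 4.63 ± 2.13 in controls (SD, n = 3, 4 and 4). It was the only gene of the list with an unadjusted p under 0.05, in cisplatin against control, beside 9.71% of all genes tested. Mmrn1 averaged 1.57 ± 0.256, 1.63 ± 0.803 and 2.48 ± 0.272 CPM in the same groups. Selp, the P-selectin of platelets and vessels, averaged 0.567 ± 0.436, 1.32 ± 0.648 and 0.960 ± 0.639 CPM, and Itgb3 46.0 ± 16.5, 42.0 ± 7.02 and 36.2 ± 6.08 CPM.

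Macrophage genes, as markers of another blood-derived cell, were more abundant than the members. The 14 in the table summed to 77.9, 132 and 67.4 CPM with cisplatin plus STB, 112, 198, 145 and 66.4 CPM with cisplatin and 99.2, 113, 99.7 and 105 CPM in controls. Of the 13 tested, edgeR called 0. At an unadjusted p under 0.05 it had 0 higher and 3 lower in cisplatin plus STB against cisplatin, 1 and 0 in cisplatin against control and 0 and 1 in cisplatin plus STB against control. The shares over all genes tested were 9.03%, 9.71% and 1.07%, in either direction. Cd163, the hemoglobin scavenger receptor, averaged 1.65 ± 0.343 CPM with cisplatin plus STB, 8.62 ± 3.76 with cisplatin and 3.04 ± 0.732 in controls (SD, n = 3, 4 and 4). Its adjusted p in the test over the 3 groups was 0.195 by edgeR, while DESeq2 called it in cisplatin plus STB against cisplatin and in cisplatin against control. Cisplatin replicate 2, the highest library of the macrophage list, was also the highest for Csf3r, Mmp9 and Adam8. The same library was the highest for 18.8% of all 15384 genes tested, the largest share of any library. Whether these genes share a source was not tested.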

How the data were processed

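RNA-seq of 11 guinea pig cochlear libraries was deposited as 1 table with a raw count and an FPKM value per gene and library. Per the labels' protocols, libraries were made from total RNA by poly(A) selection or ribosomal RNA removal, with strand marking by dUTP, and sequenced as read pairs. HTSeq 0.6.1, cutadapt 1.9.1 and HISAT2 2.2.1 are named in the submitters' processing notes; the genome build and strand setting are not given there. In the deposited FPKM values, the total implied by each library equalled the sum of its counts.

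Counts were fitted in edgeR 4.0.16 (R 4.3.3) with filterByExpr by group, TMM scaling and the robust quasi-likelihood test, 1 fit for all 11 libraries and no covariate, and Benjamini-Hochberg adjustment over 15384 genes at 0.05. The filter removed 6097 genes. The steps were tested on simulated data. CPM uses TMM library sizes, and log2 CPM a prior count of 2. Correlations used 100000 permutations. No per-sample column was left out. DESeq2 1.42.0, its size factors, no filter, a replicate block, only the 2 groups compared and leaving out each library were alternatives.

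Replicate numbers were not used as pairs: of 10 pairs with the same number, 3 correlated above 0.1 in their deviations from group means (-0.31 to 0.36). Members and the 14 wider lists were chosen with earlier results of these data known. Every member is named, the 4 most counted tested members of a lineage are given by library, and from each wider list of a blood lineage the 4 tested genes with the smallest p over the 3 groups are given. Genes named beside these, among them the markers at or near 0, were chosen after their values were seen. RefSeq sequences of the members were not used here, and some genes of the wider lists are not reported here.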

Additional observations from a re-analysis of the deposited data

Results flagged for a closer look

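Among 30 genes and 60 groups of 4 libraries, 5 held a library far from the other 3. The limit used gives about 1 in 20 for independent, normally distributed values. Here the same libraries recur for every gene, and many of the genes were chosen by their p-value. The number flagged is therefore not compared with chance. The alpha globin gene (LOC100712878) had 9.44 CPM in cisplatin replicate 3, against 2.56 to 3.66 in the other cisplatin libraries. Adam8 had 53.2 CPM in cisplatin replicate 2, against 1.56 to 3.84, and Cr2 had 2.07 CPM in the same library, against 0.732 to 0.831. Spib had 13.1 CPM in control replicate 2, against 10.4 to 10.6 in the other controls, and Itgb3 had 27.2 CPM there, against 38.3 to 40.4. None of the 8 tested members had such a library. Groups of 3 libraries were not examined in this way, so cisplatin plus STB replicate 2 is described above by its values only.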

How the results depend on the processing

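No member was called under any of the 16 alternatives, or in 1 chosen after seeing the data, which left out both the count filter and cisplatin plus STB replicate 2. The lowest adjusted p of a member was 0.468, for S100a9 in cisplatin against control without cisplatin replicate 1. Of the 24 fold changes (8 members, 3 comparisons), 16 changed sign in at least 1 alternative. Camp and S100a9 have no value in 2 or 3 alternatives, and Slc4a1 none in 1, because they did not pass the filter there. The correlation of Rhag and Itga2b passed an unadjusted 0.05 only without control replicate 1.

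Counts of called genes over the whole table moved with the method. For cisplatin plus STB against cisplatin the count was 3 and became 101 with DESeq2's test, 0 with the replicate block, 0 with only the 2 groups compared, and 0 to 23 when 1 library was left out. For cisplatin against control it was 0 and became 1 with no low-count filter, 33 with DESeq2's test and 0 to 7 with 1 library left out. For cisplatin plus STB against control it was 0, and 0 to 2 with 1 library left out. For any difference among the 3 groups it was 1 and became 2 with no filter, 109 with DESeq2's test, 0 with the replicate block and 0 to 10 with 1 library left out. The cause was not tested. In the fit with the replicate block, Mmp9 in cisplatin against control had a log2 fold change of -0.18 in place of 0.60, with no call in either.

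The alpha globin change (LOC100712878) for cisplatin plus STB against control was 0.76 and ran between -0.16, without cisplatin plus STB replicate 2, and 1.24. Il1r2 in cisplatin plus STB against cisplatin was -2.26 with an adjusted p of 0.0212 by edgeR without cisplatin plus STB replicate 3. The 16 members with under 50 counts did not pass the count filter, and none of those with a count was called in the fit without it.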

Other observations

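The red cell membrane skeleton genes Sptb and Gypc, chosen after their values were seen, averaged 37.3 and 30.3 FPKM over the 11 libraries. Ank1, the erythroid ankyrin, which muscle also makes, had 21.3, 98.5 and 10.3 CPM with cisplatin plus STB, 7.80, 8.02, 40.5 and 7.07 CPM with cisplatin and 8.81, 70.6, 17.5 and 7.0 CPM in controls. Add2, a gene of the adducin family of the same skeleton, had 8.21, 29.2 and 3.79 CPM with cisplatin plus STB, 2.31, 2.46, 18.1 and 1.22 CPM with cisplatin and 2.2, 38.2, 6.89 and 3.06 CPM in controls. Both were high in cisplatin plus STB replicate 2, cisplatin replicate 3 and control replicate 2, a set of libraries that holds 1 of each group. The summed globin CPM was also the highest of its group in cisplatin plus STB replicate 2, at 56.6, and in cisplatin replicate 3, at 15.6. In control replicate 2 it was the lowest of the controls, at 10.9. Whether the patterns share a source was not tested.

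Eosinophil, basophil and mast cell genes were almost without reads. Of 13 listed, 7 were in the table, none was tested, and Prg3 and Fcer1a were at 0 in every library. Of 12 progenitor genes in the table, 11 were tested and 0 were called. Gata2 averaged 72.4 ± 7.15 CPM with cisplatin plus STB, 53.2 ± 4.68 with cisplatin and 64.4 ± 19.8 in controls (SD, n = 3, 4 and 4).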
